A study of Drosophila melanogaster with 24 samples.

Results

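The sex difference in transcript abundance was described in flies of the Low lines, which had been selected for low locomotor reactivity, that is, little movement after a mechanical disturbance. The members are the 8 whole-fly samples of the Low group among the 24 samples of the series: 4 of males and 4 of females, from 2 replicate lines with 2 replicate samples of each sex per line. They were chosen by their labels alone. Each sample was hybridized to 1 Affymetrix Drosophila GeneChip 2.0 array. The groups used here are Low males and Low females, and, for comparison, males and females of the High lines, selected for high locomotor reactivity, and of the Control lines, kept without selection. Each of these 3 groups had 2 lines, and each line had 2 arrays of each sex. The flies of every group were Drosophila melanogaster, 3 to 7 days old, virgin, and collected at generation 25 of the selection experiment. With 2 lines in a group, and 2 samples of flies from a line standing in as its replicates, the p-values below measure the spread between samples of these lines.

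In Drosophila the number of X chromosomes sets whether Sex-lethal is active, and Sex-lethal acts through transformer on the splicing of doublesex and fruitless, whose sex-specific proteins direct male or female development. Gene activity of adult flies differs most in the reproductive tract: ovaries make yolk receptors, egg shell and the RNAs and proteins stored in the egg, testes make sperm with their own variants of many housekeeping proteins, and male accessory glands make seminal proteins. Outside the reproductive tract, the fat body makes yolk proteins in females, and oenocytes make cuticular hydrocarbons that serve as sex pheromones.

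Abundance was measured as Signal, the linear intensity that the MAS5 program computes for a probe set, given here to 4 significant digits. Differences between the sexes are males minus females on the log2(Signal) scale. Where values of single arrays are given, they stand in the order line 1 replicate 1, line 1 replicate 2, line 2 replicate 1, line 2 replicate 2. A probe set was tested if its median Signal over the 24 arrays was at least 75. Below 75 the size of a log2 difference is imprecise, since small absolute differences in Signal change it greatly. A gene was therefore called limited to 1 sex where all 4 arrays of that sex were at 75 or more and all 4 of the other sex were below it, and its fold difference is given as a lower limit, the mean log2 level of the sex that had the transcript against 75. Whole flies were extracted, so a larger tissue, more cells of a type and more RNA per cell cannot be told apart.

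No array stood apart. Within a line and sex the 2 Low arrays correlated at 0.971 to 0.981 over the tested probe sets, arrays of the other Low line and the same sex at 0.963 to 0.976, and arrays of the other sex of the same line at 0.357 to 0.445. The median Signal of all probe sets was 143.2 to 152.2 in Low males and 93.0 to 105.6 in Low females. Marker genes bore out the labelled sexes: Cp36, an egg shell gene, had a Signal of 9.0 to 29.8 in Low males and 8172 to 10050 in Low females, and betaTub85D, the testis beta-tubulin, had 8259 to 9209 in Low males and 13.7 to 72.2 in Low females. Markers of flight muscle (Act88F, fln), eye (trp, Arr2), brain (elav, nSyb) and midgut (Jon25Biii) were measured in both sexes and did not pass the test. The vasa and cannonball probe sets were too dim to be tested.

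Of 11439 probe sets tested, 5387 (47.1%) differed between the sexes in Low flies at a Benjamini-Hochberg adjusted p under 0.001 in limma, with line as a covariate. Of these, 2071 (18.1%) were higher in males and 3316 (29.0%) were higher in females. Counted as genes, each by its brightest probe set, 1855 of 9470 (19.6%) were higher in males, 2857 (30.2%) were higher in females and 4758 did not pass. The values of the 4 male and the 4 female arrays did not overlap in 1845 of the male-higher and 2850 of the female-higher genes. The calls came from the same 8 arrays, so this is no further support, and genes that did not pass were not counted. The median over all genes was -0.15. The sexes also differed in kind: 1260 genes were limited to males, against 167 limited to females, whereas among called genes measured on all 8 arrays 448 were higher in males and 2493 in females. In that last set, the median size of the difference was 0.90 on the log2 scale for male-higher and 1.19 for female-higher genes. A difference of at least 2-fold was reached by 188 male-higher and 1611 female-higher genes, and one of at least 8-fold by 22 male-higher and 48 female-higher genes. Shifting each array to a common median raised every difference by about 0.18, and the tested probe sets then split into 2445 higher in males and 2711 higher in females. With the 4 arrays of line 1 alone, males exceeded females in 891 probe sets and females exceeded males in 413; with the 4 arrays of line 2 alone, 917 and 584.

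Transcripts limited to males were led by genes of unknown or testis function. CG9016 had a Signal of 11000, 12030, 11880 and 12130 in Low males, against 34.9, 39.4, 26.5 and 33.0 in Low females, at least 157-fold higher in males (log2 difference 8.47 ± 0.12 SE, limma adjusted p = 4.07e-08). Mst84Dd, one of a cluster of genes for sperm tail proteins, had 6412, 6765, 6715 and 7009 in Low males, against 19.1, 23.5, 23.7 and 30.0 in Low females, at least 89.6-fold higher. CG46298 had 3928, 4283, 3587 and 3987 in Low males, against 13.9, 13.4, 14.8 and 15.9 in Low females, at least 52.5-fold higher. That no female array reached 75 follows from the definition, and the choice by smallest p favours genes whose males lie close together. The other 5 of the 8 male-limited genes of smallest p were CG12983, CG3199, CG15109, CG43106 and CG14154, which were at least 7.75-fold to 18.8-fold higher in males.

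Transcripts limited to females were led by genes of the oocyte. Nanos, the translational repressor that patterns the posterior of the embryo, had a Signal of 21.2, 28.4, 36.8 and 32.3 in Low males, against 5081, 4022, 5888 and 5808 in Low females, at least 68.6-fold lower in males (log2 difference -7.47 ± 0.13 SE). Yolkless (yl), the receptor that takes yolk protein into the oocyte, had 3.8, 5.9, 3.6 and 4.4 in Low males, against 2023, 2069, 2042 and 2201 in Low females, at least 27.8-fold lower. AGO3, an Argonaute protein of the piRNA pathway that silences transposons in the germ line, had 61.1, 53.1, 71.9 and 58.8 in Low males, against 1443, 1191, 1643 and 1475 in Low females, at least 19.1-fold lower. The male arrays of AGO3 came close to 75, and those of yl lay far below it. The remaining 5 of the 8 were CG14545, at least 59.1-fold lower in males, CG6927, CG5568, BoYb, a Tudor-domain protein of the piRNA pathway, and Claspin, a replication checkpoint protein.

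Genes measured on all 8 arrays show how far the sexes lay apart where both values are reliable. CG7768 had a Signal of 5357, 5667, 5730 and 5853 in Low males, against 97.9, 135.3, 95.7 and 130.9 in Low females, 49.8-fold higher in males. Obp56g, of the odorant-binding protein family, had 15390, 15850, 12520 and 13400 in Low males, against 799.8, 620.6, 831.6 and 697.4 in Low females, 19.4-fold higher. Both genes were chosen for their large difference, and the females of Obp56g were well above 75. The other 6 of the 8 with the largest male excess were Ugt50B3 (log2 difference 4.86), a UDP-glycosyltransferase, smooth (sm, 4.19), an RNA-binding protein, Gpdh3 (4.16), of the glycerol-3-phosphate dehydrogenases, CG15394 (4.08), CG3085 (3.84) and Jhbp5 (3.82).

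Yolk protein 3 (Yp3) headed the female side. It had a Signal of 134.5, 145.3, 162.5 and 124.6 in Low males, against 19640, 19940, 16620 and 16640 in Low females, a log2 difference of -7.01 ± 0.11 (SE, limma adjusted p = 4.07e-08). Chorion protein 15 (Cp15), a component of the egg shell, had 98.6, 101.7, 81.6 and 95.6 in Low males, against 6907, 3840, 6442 and 11000 in Low females, a log2 difference of -6.13 ± 0.28. The spread among the female arrays was wider for Cp15 than for Yp3. The remaining 6 were eloF (log2 difference -5.53), a fatty acid elongase of female pheromone synthesis, loki (lok, -5.19), the checkpoint kinase Chk2, Marf1 (-4.80), a meiosis regulator, PCNA (-4.71), the sliding clamp of DNA replication, CG43134 (-4.52) and RpS5b (-4.43), a ribosomal protein paralog of the ovary.

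**Figure D1:**
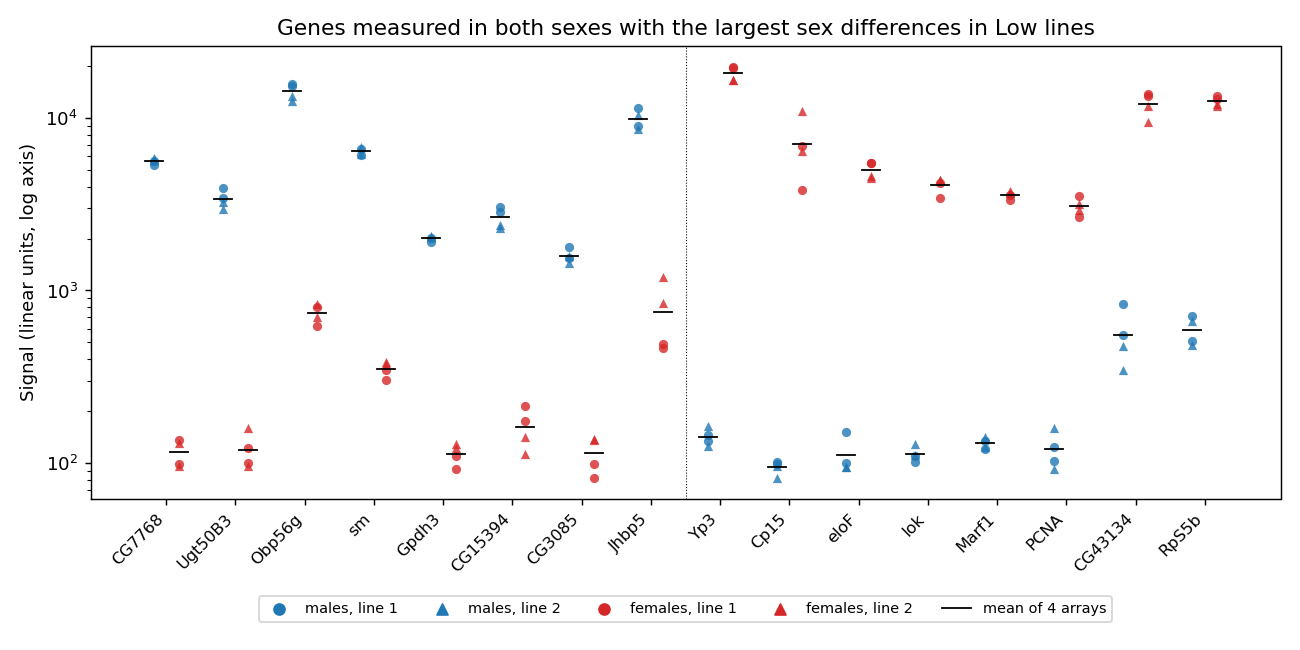
Signal (linear units, log axis) on the 4 male arrays (blue) and the 4 female arrays (red) of the Low lines for the 8 genes with the largest excess in males, left of the dotted line, and the 8 with the largest excess in females, right of it, among genes with a Signal of at least 75 on all 8 arrays. Circles are line 1, triangles line 2 and bars the mean of 4 arrays. The genes were chosen among those in which the sexes do not overlap. Yp3 shows the widest gap, with males at 124.6 to 162.5 and females at 16620 to 19940.

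Of the 10 tested genes of the sex determination pathway (12 on the array), 5 were higher in females, 4 did not pass and doublesex passed in opposite directions on its probe sets. The median was -0.89 against -0.15 for all genes, with doublesex at its female-higher probe set. Doublesex (dsx), the transcription factor at the end of the pathway, was measured by a pair of probe sets that went opposite ways. On one it had a Signal of 38.4, 43.2, 54.2 and 49.8 in Low males, against 547.5, 468.6, 489.0 and 467.0 in Low females, a log2 difference of -3.42 ± 0.12. On the other it had 531.9, 541.9, 533.6 and 459.9 in Low males, against 63.7, 49.1, 54.4 and 43.4 in Low females, a difference of 3.31 ± 0.12. Doublesex transcripts are spliced differently in males and females. Which exons each probe set covers was not given in the sources used here, so a total level of dsx was not compared between the sexes.

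Transformer (tra), whose spliced RNA makes a functional protein in females only, had 268.3, 312.6, 251.0 and 216.5 in Low males, against 584.2, 684.2, 585.4 and 529.3 in Low females, a log2 difference of -1.19 ± 0.10. Its partner tra2 was lower in males by 0.89 on the log2 scale, and so was intersex (ix), which acts with the female form of Doublesex. Daughterless (da), an activator of Sex-lethal, differed by -1.25. Ovarian tumor (otu), which is needed for Sex-lethal splicing in the female germ line, had 3.8, 4.8, 28 and 18.2 in Low males, against 3031, 2956, 3104 and 3815 in Low females. Sex-lethal (Sxl) itself had 377.1, 455.1, 476.3 and 255.6 in Low males, against 649.5, 639.5, 820.2 and 715.5 in Low females. Its arrays did not overlap, but at -0.89 ± 0.21 it did not pass (limma adjusted p = 0.00685), and its other tested probe sets, at -0.41 and 0.53, did not pass either. Fruitless (fru, 0.68), virilizer (vir, -0.59) and fl(2)d (-0.69) also did not pass. The call of ix was lost without any 1 of 3 arrays (log2 difference -0.86 to -0.84, adjusted p = 0.00107 to 0.00122) and under median centring (-0.70).

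Among 6 genes of dosage compensation, by which males double the transcription of their single X chromosome, msl-1 and Clamp were higher in females and 4 did not pass. The share higher in females, 33.3%, was near the 30.2% of all genes. msl-1 had a Signal of 142.2 to 182.3 in Low males, against 261.1 to 347.3 in Low females, without overlap, and Clamp had a log2 difference of -0.98. msl-2, whose protein is made in males and limits the complex to them, had a Signal of 239.5, 281.8, 224.8 and 172.4 in Low males, against 80.3, 126.3, 124.6 and 73.8 in Low females. The sexes did not overlap for msl-2, and its 2.30-fold difference fell short of the threshold (adjusted p = 0.00197) although it passed under median centring (1.39) and without the first female array of line 2 (1.39, adjusted p = 0.000819). The call of msl-1 was lost without any 1 of 6 arrays (-1.01 to -0.95, adjusted p = 0.00118 to 0.00152), and that of Clamp without the second male array of line 1 (-0.97, adjusted p = 0.00102). msl-3, mle and mof gave -0.94, -0.42 and -0.77 and did not pass. The roX RNAs were not analysed here.

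In the fat body, the 3 yolk protein genes were higher in females and 2 male genes were higher in males, of 7 genes listed. These are 42.9% and 28.6% of the list, against 30.2% and 19.6% of all genes. Yp1 had a Signal of 16.6, 34.8, 19.9 and 10.5 in Low males, against 23720, 24340, 19430 and 19600 in Low females, and Yp2 had 48.9, 26.1, 25.0 and 6.3 in Low males, against 22600, 22930, 18220 and 19770 in Low females. In females all 3 yolk protein genes were brighter on both arrays of line 1 than on either array of line 2. Cyp4d21, a cytochrome P450 of the male fat body also called sxe1, had 1001, 839.8, 709.4 and 759.1 in Low males, against 48.3, 43.4, 6.4 and 2.0 in Low females, and sxe2, a lipase, had 2610, 2294, 2249 and 1542 in Low males, against 287.0, 265.4, 294.1 and 265.0 in Low females. Obp99b, known from other flies as a male-enriched gene of the fat body, varied within the sexes: it had 6593, 2596, 874.4 and 589.0 in Low males, against 681.6, 1254, 406.5 and 428.1 in Low females. Its sexes overlapped, and its difference of 1.47 ± 0.42 did not pass (limma adjusted p = 0.0145). The gene fit, female-enriched in other flies, had 422.4, 203.7, 184.1 and 136.9 in Low males, against 437.9, 532.5, 439.0 and 1144 in Low females, and did not pass (-1.44, adjusted p = 0.0200).

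Enzymes of sex pheromone synthesis divided into a sex-specific and a shared part. Fad2 (desatF), the desaturase that makes the dienes of females, had 69.1, 20.0, 55.3 and 38.7 in Low males, against 11540, 12320, 9424 and 9049 in Low females, and eloF, which lengthens their carbon chain, had 150.9, 100.2, 95.1 and 95.0 in Low males, against 5477, 5506, 4518 and 4599 in Low females. The elongase bond was higher in males, with 2324, 1984, 1965 and 1954 in Low males, against 778.6, 659.6, 540.0 and 700.9 in Low females, and so was FarO, a fatty acyl-CoA reductase of oenocytes, at a log2 difference of 1.48. The enzymes that both sexes need for cuticular hydrocarbons did not pass: Desat1 gave -0.09, FASN1 -0.21, and Cyp4g1, the P450 that carries out the last step, -0.05 ± 0.08, with 21930, 25260, 20330 and 21120 in Low males, against 25150, 25960, 21300 and 19810 in Low females. Desat2 (-2.06, adjusted p = 0.0151) and FASN2 (0.69) did not pass.

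The lists of ovary functions lay on the female side. Many genes of the reproductive tract could reach a median Signal of 75 only through the sex in which they were high, so counts over the tested members are fixed in part by that filter, and for such lists all members on the array were also tested without it. Without the filter, 1822 (9.71%) of 18769 probe sets were higher in males and 2562 (13.7%) in females. How many of all probe sets had the arrays of 1 sex above those of the other was not counted. Among the 9470 genes tested, 1845 called male-higher and 2850 called female-higher genes did, so list counts of this kind have a high background. All 17 egg shell genes on the array had the 4 females above the 4 males, and 15 of them passed without the filter (median -6.67). Of the 10 that passed the filter, 6 were under 75 on all male arrays. Besides Cp15, fs(1)N, a gene of the vitelline membrane, had a Signal of 35.3, 40.5, 42.7 and 72.9 in Low males, against 1238, 1075, 1222 and 1326 in Low females. The summed Signal of those 10 was 419.5 to 505.7 in Low males and 32490 to 54830 in Low females. Of 32 tested genes of germ plasm and the piRNA pathway (33 on the array), 25 were higher in females and 2 in males (median -3.05), with 12 under 75 on all male arrays. Without the filter, 22 of the 33 were higher in females and 2 in males. Oskar (osk), the organizer of germ plasm, had 19.1, 3.0, 2.2 and 4.7 in Low males, against 9532, 8921, 8936 and 8440 in Low females. Bicaudal C (BicC), an RNA-binding protein of oogenesis, had 240.2, 224.5, 257.1 and 330.2 in Low males, against 3098, 3159, 3344 and 3322 in Low females. The female arrays of both genes lay within a narrow range. Exuperantia (exu, log2 difference 7.93), which acts in both oocytes and spermatocytes, and bgcn (2.53), a partner of bam in germ cell differentiation, were the 2 higher in males. These values are of the probe set that stands for each gene, and which transcript forms it covers was not examined.

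Genes of dividing cells went the same way. Of 29 genes of DNA replication, 28 were higher in females, and Orc2 (-3.42, adjusted p = 0.00107) did not pass; the median was -2.95. Double parked (dup), the replication licensing factor Cdt1, had a Signal of 70.3, 64.7, 71.8 and 92.5 in Low males, against 1469, 1342, 1479 and 1804 in Low females, a log2 difference of -4.35 ± 0.11 (limma adjusted p = 1.60e-07). Mcm6, a subunit of the replicative helicase, had 131.1, 154.2, 138.0 and 152.8 in Low males, against 1495, 1661, 1684 and 1934 in Low females. The summed Signal of the list was 3676 to 4228 in Low males and 24740 to 31850 in Low females. Of 23 tested genes of cell cycle and meiosis (27 on the array), 21 were higher in females and endos (-0.10) and mei-S332 (0.21) did not pass. Without the filter, 21 of the 27 were higher in females (median -2.77). Cyclin B (CycB) had 72.4, 94.2, 99.9 and 50.5 in Low males, against 11690, 10510, 11860 and 11290 in Low females, and matrimony (mtrm), an inhibitor of Polo kinase in the oocyte, had 56.5, 42.0, 34.6 and 45 in Low males, against 4143, 3346, 4845 and 5025 in Low females.

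On the male side, 43 of the 48 genes of testis and sperm on the array had the 4 males above the 4 females. The share of all probe sets so separated was not counted, so this count and that of seminal fluid below are no result by themselves. Without the filter, 32 of the 48 passed as higher in males and 1, scat (-0.94), as higher in females (median 5.25). Of all probe sets, 9.71% were higher in males without the filter. The filter left 35 of them, of which 30 were higher in males and 27 were under 75 on all female arrays. Ocnus (ocn), a testis protein, had 10560, 11090, 11500 and 11590 in Low males, against 4.4, 6.8, 4.3 and 7.2 in Low females, and Mst98Cb, a protein of the sperm tail, had 3601, 3788, 3913 and 4789 in Low males, against 3.5, 4.4, 7.7 and 4.3 in Low females. Of 34 seminal fluid genes on the array, most of them made in the accessory gland, all had the 4 males above the 4 females, and 33 passed without the filter (median 8.80). Of the 33 tested with the filter, 30 were under 75 on all female arrays, and Acp95EF (1.45) did not pass. The ejaculatory bulb protein Ebp had 20330, 22520, 17980 and 18390 in Low males, against 15.5, 13.9, 13.2 and 21.7 in Low females. The summed Signal of the seminal fluid list was 238100 to 265800 in Low males and 760.8 to 1015 in Low females. With every Signal below 75 raised to 75, the medians of the tested members were 4.40 for testis and sperm and 5.67 for seminal fluid, which bounds what the dim female arrays add.

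Families of housekeeping proteins held paralogs with a sex difference beside members without one. All 13 testis variants of proteasome subunits on the array had the 4 males above the 4 females, a separation not counted over all probe sets. Without the filter, 11 passed as higher in males (median 5.12), against 9.71% of all probe sets. The 10 that passed the filter were under 75 on all female arrays. Of the 25 standard subunits, all of them tested, 6 (24%, against 30.2% of all genes) were higher in females and 19 did not pass. All 25 differences were negative (median -0.37, or -0.19 under median centring, with 3 higher in females). Prosbeta5R1, a variant, had a Signal of 626.4, 575.7, 569.3 and 720.9 in Low males, against 2.6, 3.0, 5.8 and 3.5 in Low females, and Rpt3, a standard subunit, had 1496, 1356, 1415 and 1540 in Low males, against 2506, 2566, 2419 and 2458 in Low females. In the respiratory chain, 16 of 18 subunits named as a paralog (with a final L) were higher in males, with a median of 4.78. Of the 75 tested genes of the respiratory chain, 12 were under 75 on all female arrays, so they too passed the filter through males. Of the 57 other subunits 2 were higher in males, ND-B8 (0.76) and UQCR-Q (1.02), and 55 did not pass, with a median of 0.08. UQCR-11L, a paralog, had 1055, 1057, 1224 and 1120 in Low males, against 74.1, 73.0, 69.1 and 62.9 in Low females.

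Glycolysis and the ribosome had the same arrangement in part. The 3 of 15 glycolytic genes that passed (20%, near the 19.6% of all genes) were higher in males. They were the hexokinases Hex-t1 (2.89) and Hex-t2 (5.80), named for the testis, and Pglym87 (4.27), a phosphoglycerate mutase paralog. All 3 were under 75 on all female arrays, so they passed the filter through males and their log2 sizes are imprecise. The call of Pglym87 was lost without any 1 of 3 arrays (4.14 to 4.36, adjusted p = 0.001001 to 0.00133). Pglym78, the standard mutase, gave -0.35, and Gapdh1 -0.06. Of 34 ribosomal proteins, 3 were higher in males (RpS19b 3.03, RpS10a 4.19, RpL10Aa 6.59) and 7 higher in females, led by RpS5b (-4.43). These shares, 8.82% and 20.6%, were below the 19.6% and 30.2% of all genes. Of the 34, 2 were under 75 on all female arrays, RpL10Aa among them, so its log2 size is imprecise. RpS5b had 506.5, 708.4, 663.6 and 482.9 in Low males, against 13440, 12990, 12010 and 11830 in Low females. The other 6 female-higher ones, led by RpL34a (-0.92), differed by less than 1 on the log2 scale, and only 2 of the 7 passed under median centring.

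**Figure D2:**
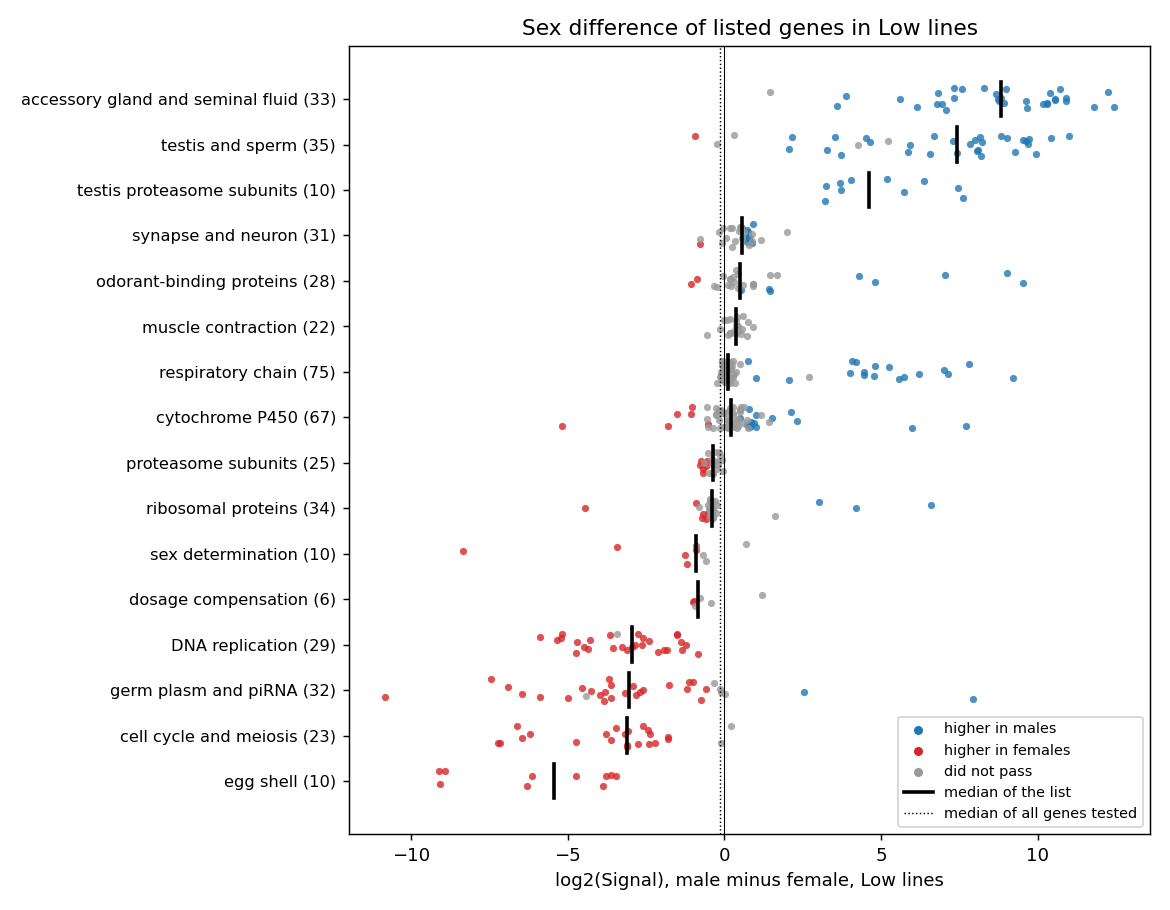
Difference between the sexes in Low lines, males minus females in log2(Signal), for the tested genes of 16 lists, 1 point per gene and the number of genes in parentheses. Blue points (males higher) and red points (females higher) had an adjusted p under 0.001, gray points did not pass, the thick bar is the median of the list and the dotted line that of all genes (-0.15); only members that passed the Signal filter are drawn, which for reproductive tract lists favours those high in 1 sex, and the ovary and cell cycle lists lie at -2.95 to -5.43 and the testis and seminal fluid lists at 4.62 to 8.83.

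Tissues that both sexes share showed small differences. None of 22 genes of muscle contraction passed (median 0.36). Sls, the titin-like protein of the sarcomere, had the smallest p of them, at 0.53 ± 0.11 (limma adjusted p = 0.00337), and passed under median centring and under quantile normalization. Of 31 tested synapse and neuron genes (35 on the array), 10 (32.3%, against 19.6% of all genes) were higher in males and 20 did not pass (median 0.57). Higher in females was 1 (3.23%, against 30.2% of all genes), Snap24 (-0.79). Without the filter, 1 of the 35 was higher in males and 1 in females, against 9.71% and 13.7% of all probe sets, so the higher male share did not hold there. Snap25, a SNARE protein of transmitter release, had a Signal of 3111, 3314, 3449 and 3270 in Low males, against 1868, 1808, 2018 and 1873 in Low females, a log2 difference of 0.80 ± 0.07. The potassium channel Shaker (Sh) gave 0.71 on the probe set that stands for it and 0.90, 0.49 and 0.13 on others, of which the last 2 did not pass, and the acetylcholine transporter VAChT 0.88. The summed Signal of the list was 27020 to 30270 in Low males and 18500 to 20210 in Low females. In phototransduction, inaE (-1.18), a lipase, was the 1 of 19 that passed (5.26% higher in females, against 30.2% of all genes). Its other probe set, at 0.61, did not pass.

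Odorant-binding proteins ranged widely. Of 28 tested (47 on the array), 8 (28.6%, against 19.6% of all genes) were higher in males (median 0.49). Higher in females were 2 (7.14%, against 30.2% of all genes), Obp56e (-0.87) and Obp57a (-1.06). Without the filter, 7 of the 47 were higher in males and 0 in females, against 9.71% and 13.7% of all probe sets. Obp51a had 7852, 6788, 6996 and 6327 in Low males, against 7.5, 30.4, 2.0 and 17.9 in Low females, and Obp56f had 2683, 1652, 2331 and 2823 in Low males, against 3.4, 21.4, 3.2 and 1.7 in Low females. These genes and Obp56g, Obp56i and Obp22a had differences of 4.28 to 9.52, whereas the next largest of those that passed was Obp19b at 1.47. Of the 28 tested, 4 were under 75 on all female arrays, Obp51a, Obp56f and Obp56i among them. These 4 passed the filter through males, and their log2 sizes are imprecise. Among 67 tested genes of the cytochrome P450 family, males exceeded females in 14 (20.9%, near the 19.6% of all genes) and females exceeded males in 6 (8.96%, against 30.2% of all genes), with a median of 0.22. Cyp312a1 had 2314, 2363, 2180 and 2372 in Low males, against 10.3, 8.7, 14.7 and 11.5 in Low females. Cyp6a19 lay at the other end, with 93.9, 135.5, 49.2 and 64.1 in Low males, against 2745, 2104, 3212 and 3710 in Low females. Cyp18a1, the P450 that inactivates ecdysone, had 249.3, 277.4, 317.9 and 248.8 in Low males, against 884.1, 892.1, 1101 and 905.6 in Low females.

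Among immune genes, drosomycin (Drs), an antifungal peptide, had a Signal of 1428, 1789, 1232 and 3314 in Low males, against 15660, 16190, 13490 and 12560 in Low females (limma adjusted p = 7.93e-05). Relative to their level, its male arrays ranged more widely than its female arrays, and the groups did not overlap. Drsl5, a related peptide, was higher in males at 0.56 ± 0.09, a call that was lost without any 1 of the 8 arrays. The other 5 of the 7 tested antimicrobial peptides did not pass, among them Defensin (Def) at -2.84 (adjusted p = 0.00160), which passed without the second male array of line 2 (-3.25).

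By chromosome, the X held fewer male-higher and more female-higher genes than the autosomal arms in these counts. Of 1485 tested X-linked genes, 13.6% were higher in males and 38% higher in females, against 19.6% and 30.2% of all genes, and the median difference was -0.44 on the X against -0.15 over all genes. On the arms 2L, 2R, 3L and 3R, 19.2% to 23.4% were higher in males and 27.8% to 30.3% higher in females. The share limited to males was 10.2% on the X and 12.9% to 17.1% on those arms. X-linked genes that were called and measured on all 8 arrays made up 2.15% (higher in males) and 32.8% (higher in females) of those tested on the X, against 4.73% and 26.3% over all genes. Under median centring the X had 16% higher in males and 32.5% higher in females, against 22.8% and 24.8% of all genes. Chromosome 4 had 59 tested genes, of which 11.9% were higher in males and 20.3% in females. The X median was -0.40 in High and -0.44 in Control lines.

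**Figure D3:**
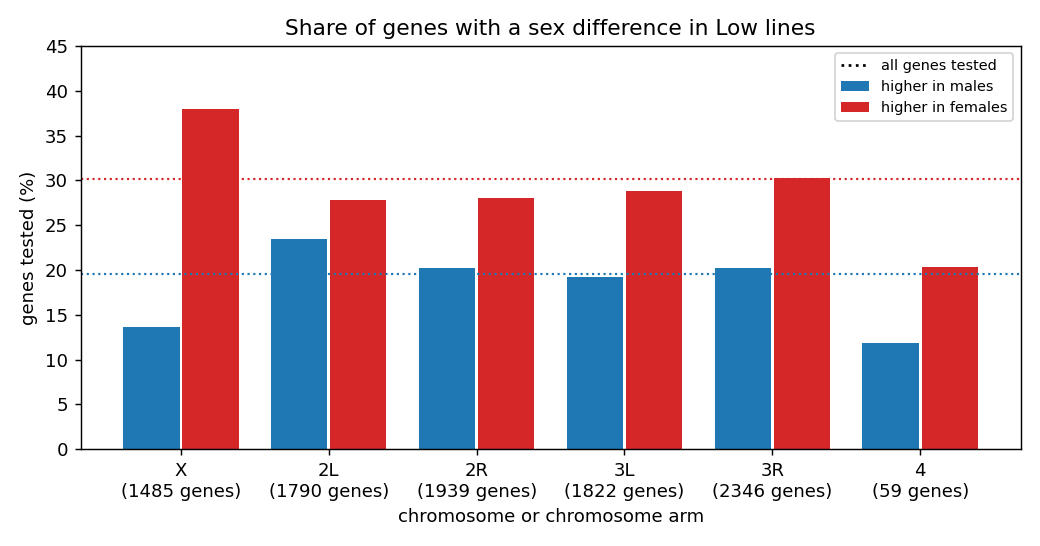
Share of tested genes (percent) that were higher in males (blue) and higher in females (red) at an adjusted p under 0.001 in Low lines, by chromosome or chromosome arm, with the number of genes tested under each. Dotted lines are the shares over all 9470 genes, 19.6% and 30.2%; the X shows the highest female share, 38%.

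The 2 Low lines were compared for how far they differ in the sex difference itself. The difference of Low line 1 less that of Low line 2 passed an adjusted p of 0.05 in 4 of 11439 probe sets (0.0350%), with 921 at an unadjusted p under 0.05. CG12470 had a Signal of 3305, 3158, 3715 and 4091 in Low males, against 150.2, 146.0, 1.4 and 1.6 in Low females. Only the females of line 1 carried the transcript among the Low females, and the sex difference was 4.45 in line 1 and 11.35 in line 2 (difference -6.90 ± 0.17, limma adjusted p = 0.000133). CG7295 (-2.70) and CG15580 (2.31) differed in the same way, through females with a Signal of 1.7 to 9.1 and of 5.6 to 31.4, where the size of a log2 difference is imprecise. Dup99B, a seminal peptide named because it was the remaining call, gave -3.24, also with all female arrays under 75. Without 1 array, 1 to 76 probe sets passed: 50 without the first and 51 without the second female array of line 1, 76 and 39 without the first and second female array of line 2, and 1 without either male array of line 1 or the second male array of line 2.

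Whether the sex difference in Low lines was larger or smaller than in the other groups was tested as the male minus female difference of Low lines less the mean of that of High and Control lines. Of 11439 probe sets, 260 (2.27%) passed at an adjusted p under 0.05 in limma: 63 (0.551%) with a greater and 197 (1.72%) with a smaller male minus female difference in Low lines. As genes these were 220 of 9470 (2.32%), 56 (0.591%) greater and 164 (1.73%) smaller. The commonest form was a larger female excess in Low lines, in 161 probe sets. In these, Low females had a median of 0.40 more than females of the other groups on the log2 scale, and Low males a median of 0.22 less than other males (-0.22). A larger male excess was found in 37 probe sets, and in 35 of these the Low females differed from the other females at an unadjusted p under 0.05 and in 5 the Low males from the other males. The male excess was smaller in 23 and the female excess in 6, and the direction in Low lines was opposite to that of the others in 13 where the others had males higher and in 20 where the others had females higher. Both Low lines lay outside the range of the 4 other lines in 211 of the 260, against 2786 of all probe sets tested. The 10 probe sets of largest difference named in each direction had to meet that condition, so it is no result about them.

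The number and direction of these calls depended on the scaling and on single arrays. Median centring moved all values by 0.11 and gave 173 greater and 90 smaller, a reversal of the balance. Without 1 array the total lay between 61 and 524. It was 524 without the first and 157 without the second female array of High line 1, 134 and 162 without its first and second male array, and 160 and 132 without the first female and the first male array of High line 2. It was 93, 158 and 118 without the first female, first male and second male array of Low line 1, and 144, 61 and 86 without the first female, second female and second male array of Low line 2. It was 128 and 146 without the first female and second male array of Control line 1, and 162 and 119 without the first female and first male array of Control line 2. Treating the 6 line differences as the samples gave 0 calls in limma, with 1387 probe sets at an unadjusted p under 0.05, where 5% of those tested is 572.

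**Figure D4:**
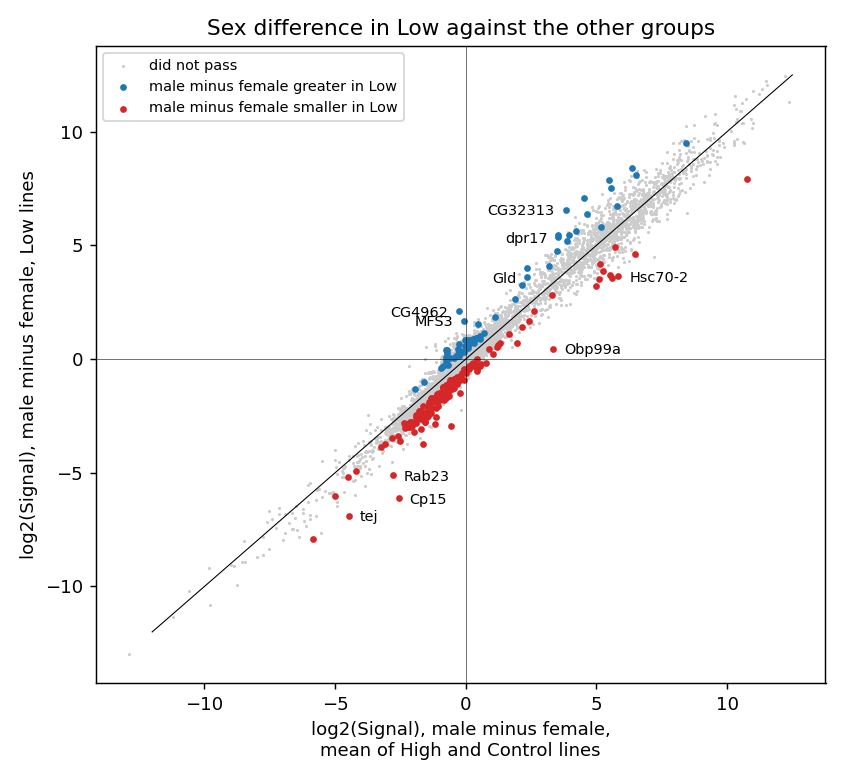
Sex difference (males minus females in log2(Signal)) in Low lines on the vertical axis against the mean of that in High and Control lines on the horizontal axis, 1 point per probe set tested, with the line of equality. Blue points (63) had a greater and red points (197) a smaller male minus female difference in Low lines at an adjusted p under 0.05; Obp99a lies at 0.45 in Low lines, far below the line.

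CG12470 gave -2.88, with a Signal of 146 and 150.2 in the females of Low line 1. Obp99a, of the odorant-binding protein family, had the smallest p of the other named genes. It had a Signal of 2027, 1452, 1854 and 2151 in Low males, against 1305, 1448, 1039 and 1715 in Low females. In the 8 males of High and Control lines it had 2235 at the lowest, 2563 at the median and 2788 at the highest, and in their 8 females 159.7, 225.2 and 462.6. Every Low female lay above every other female, and every Low male below every other male. The sex difference was 0.45 in Low lines and did not pass there (adjusted p = 0.0640), against 3.55 in High and 3.13 in Control lines, a difference between groups of -2.89 ± 0.19 (limma adjusted p = 2.31e-06). Low females differed from the other females by 2.44 ± 0.13 on the log2 scale (adjusted p = 1.38e-07) and Low males from the other males by -0.45 ± 0.13 (adjusted p = 0.0742). The sex difference was 0.32 in Low line 1 and 0.58 in Low line 2, and the call was lost only with the 6 line differences as the samples, 1 of 41 alternatives.

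Gld, a glucose dehydrogenase of the reproductive tract, had a greater male excess, with brighter males. It had 1505, 1506, 1861 and 2006 in Low males, against 144.0, 122.9, 166.3 and 137.5 in Low females, and the other groups had 594.1, 769.5 and 1088 (lowest, median, highest) in males and 112.0, 157.2 and 237.1 in females. All Low males were above all other males, and the females overlapped. The sex difference was 3.59 in Low lines, against 2.19 in High and 2.51 in Control lines (difference 1.24 ± 0.23, adjusted p = 0.0191). Low males differed from other males by 1.14 ± 0.16 (adjusted p = 0.000797) and Low females from other females by -0.10 ± 0.16. The call was lost without the second female array of Low line 2 (1.17, adjusted p = 0.0564), without Low line 1 (1.33) or Low line 2 (1.15), and without High line 1 (1.14) or Control line 1 (1.12).

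Among genes with a greater male excess through dimmer females, dpr17, a cell surface protein of the immunoglobulin superfamily, had 962.5, 1081, 1218 and 1165 in Low males, against 54, 63, 14 and 11.2 in Low females. Other males had 1008 to 1366 and other females 79.1 to 144.7. The sex difference was 5.35 in Low lines, against 3.58 in High and 3.52 in Control lines (difference 1.80 ± 0.16, adjusted p = 6.65e-05), and it was 4.13 in Low line 1 and 6.57 in Low line 2. Without Low line 2 it did not pass (0.58, adjusted p = 0.382). On the linear Signal the difference had the opposite sign and did not pass (-13.14, adjusted p = 0.935), and all 4 Low female arrays were under 75, so its log2 size is imprecise. MFS3, a transporter of the major facilitator superfamily, had 187.3, 208.1, 152.4 and 168.3 in Low males, against 58.8, 132.0, 26.5 and 46.5 in Low females, a sex difference of 1.68, against 0.10 in High and -0.20 in Control lines. Its call was lost without Low line 2 (1.22) or High line 1 (1.53). CG4962 was dim in Low flies of both sexes, with 44.6, 24.9, 80.4 and 94.9 in Low males, against 24, 20.6, 6 and 8.2 in Low females, where other males had 24.7 to 312.7 and other females 63.8 to 261.7. Its call was lost without Low line 2 (0.84), High line 1 (2.13) or Control line 1 (2.33).

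The other named genes with a greater male excess were also below a Signal of 75 on all 4 Low female arrays, so their sizes are imprecise. CG32313 (difference 2.74) lost its call without the second female (2.23) or second male array (2.75) of Low line 2, and without Low line 1 (2.00), High line 1 (2.56) or Control line 1 (2.75). CG43063 (2.57) lost it without the second male array of Low line 2 (2.62), and without Low line 1 (2.68), Low line 2 (2.46), High line 2 (1.97) or Control line 1 (2.44). Rsph4a (2.38), a homolog of a radial spoke protein of cilia, rested on Control line 1, whose sex difference was 0.97 with a highest female Signal of 566.7. Without that line it was 0.84 and did not pass (adjusted p = 0.405), and the call was also lost without the second female array of Low line 2 (2.17), Low line 1 (2.64) or Low line 2 (2.12). Nis (2.03) was lost without either Low line (2.51 without line 1, 1.56 without line 2) or Control line 2 (1.56). CG31128 (1.95) was lost without any 1 of 3 Low arrays (1.81 to 1.99), Low line 1 (1.51), Low line 2 (2.39) or Control line 1 (1.68). A probe set with no gene name here (1.52) was lost without Low line 1 (1.14) or Low line 2 (1.91).

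Of the smaller values, Rab23, a small GTPase, had a lower level in males: it had 17.9, 31.4, 16.1 and 7.8 in Low males, against 516.9, 499.1, 600.3 and 642.4 in Low females, with 39.4 to 84.1 in other males and 241.8 to 695.2 in other females. All Low males were below all other males. All 4 Low males were under 75, so the log2 size for Rab23 is imprecise. The sex difference was -5.11 in Low lines, against -2.37 in High line 1, -3.63 in High line 2 and -2.58 in Control lines (difference -2.32 ± 0.32, adjusted p = 0.00627), and without Low line 2 it did not pass (-1.63). Hsc70-2, a heat shock cognate protein of the Hsp70 family, had a smaller male excess: it had 1729, 1621, 1772 and 2012 in Low males, against 182.1, 172.0, 111.1 and 119.8 in Low females, with 1441 to 2001 in other males and 7.0 to 54.6 in other females. Those other females were all under 75, so the log2 size is imprecise. All Low females were above all other females, and the sex difference was 3.64 in Low lines, against 5.42 in High and 6.27 in Control lines. That call was lost without the first female array of Low line 1 (-2.19) or the second of Low line 2 (-2.18), and without either Low line, High line 1 or Control line 1 (-2.60 to -1.81).

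Cp15 had 24.6 to 132.4 in other males and 115.6, 453.1 and 4010 (lowest, median, highest) in other females, so that its female excess was -6.13 in Low lines, against -2.64 in High and -2.49 in Control lines (difference -3.56 ± 0.79, adjusted p = 0.0364). The highest of the other females overlapped the Low females, and the call was lost without any 1 of 13 arrays (-3.76 to -3.35, adjusted p = 0.0524 to 0.0983) and without Low line 1 (-4.01), Low line 2 (-3.12) or Control line 1 (-3.06). CG6927 differed by -2.05 ± 0.31 (adjusted p = 0.0102) and was lost without Low line 2 (-2.05). Its male arrays were under 75 in every group, so its size is imprecise. Tejas (tej), a Tudor-domain protein of the piRNA pathway, gave -2.42 with male arrays of 1.4 to 8.1 in Low lines and 4.7 to 35.3 in the others, and its call was lost without any 1 of 15 arrays (-2.62 to -2.01) and without 5 of the 6 lines (-3.14 to -1.69). CG11227 (-1.84), CG14013 (-1.85), CG11362 (-2.03) and a further probe set with no gene name here (-2.10) lost theirs without any 1 of 15, 16, 18 and 20 arrays. In CG11227, CG14013 and CG11362 all female arrays of every group were under 75. The unnamed probe set had all Low male arrays under 75, and tej all male arrays, so these sizes are imprecise.

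**Figure D5:**
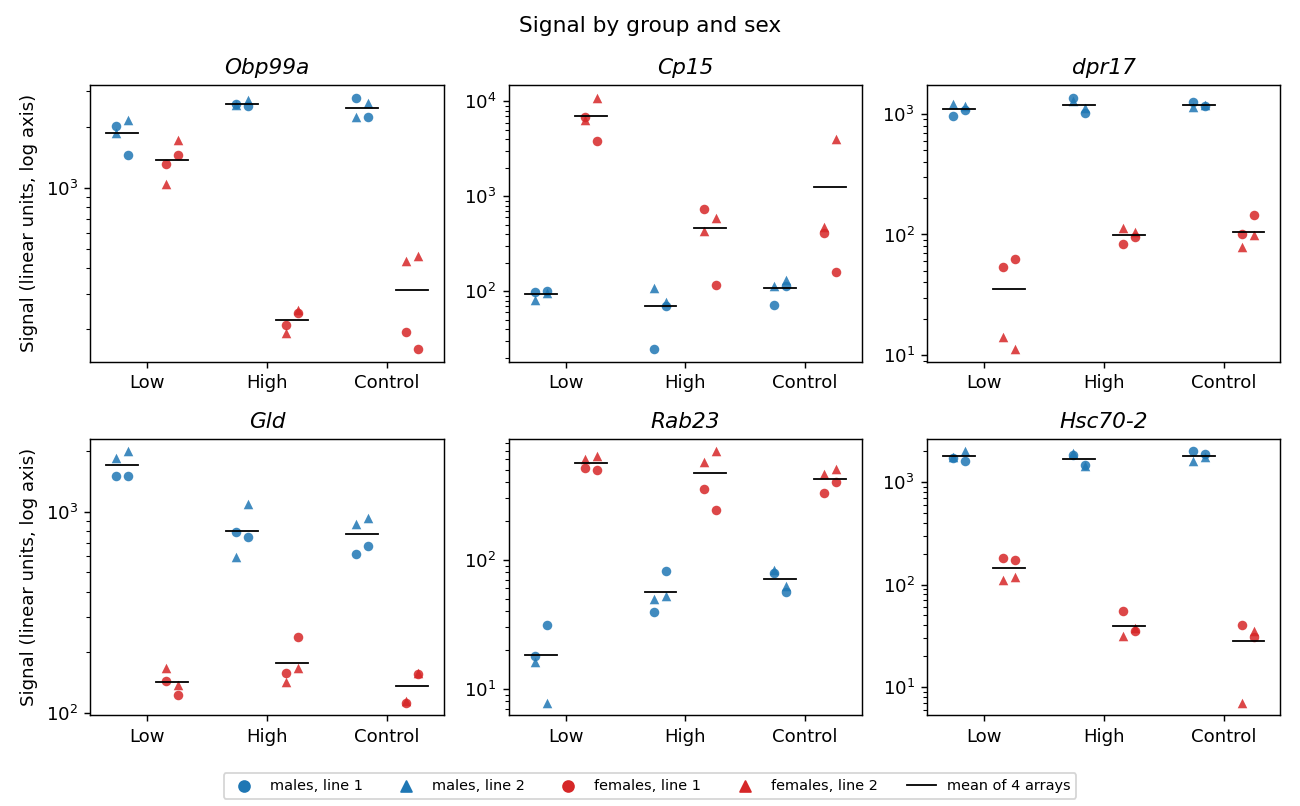
Signal (linear units, log axis) of 6 genes on all 24 arrays, by selection group and sex (males blue, females red; circles line 1, triangles line 2; bars the mean of 4 arrays). Obp99a, Cp15 and Hsc70-2 show Low females above the females of the other groups, with 1 Control female of Cp15 (4010) as the exception, Gld shows Low males and Rab23 Low males apart from other males, and dpr17 shows low females in Low line 2.

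Over the lists, 18 of 664 listed genes passed this comparison (2.71%, near the 2.32% of all genes), 3 with a greater and 15 with a smaller male minus female difference in Low lines. Of these, 4 were genes of DNA replication (Orc4, Sld5, RfC3, RPA3) and 3 of cell cycle and meiosis (mad2, fzr, mei-S332). RfC3, a subunit of the clamp loader, had 72.0, 89.6, 112.8 and 110.3 in Low males, against 501.8, 451.7, 678.9 and 711.0 in Low females, with 93.6 to 113.1 in other males and 316.5, 380.4 and 456.2 (lowest, median, highest) in other females. The male ranges overlapped, and 3 of the 4 Low females lay above all other females. Its sex difference was -2.60 in Low lines, against -1.85 in High and -1.88 in Control lines (difference -0.74 ± 0.10, limma adjusted p = 0.00627). Mad2, of the spindle checkpoint, gave -2.61 in Low lines, against -1.62 in High and -1.45 in Control lines, and fzr, the activator of the anaphase-promoting complex in endocycles, -1.81, against -1.26 and -1.16.

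For the whole DNA replication list, the median difference between groups was -0.51 against -0.02 for all genes, and all 29 values were negative (-0.40 under median centring, -0.54 under quantile normalization). The median sex difference of the list was -2.72 and -3.04 in Low lines 1 and 2, against -2.17 and -2.71 in High lines 1 and 2 and -2.14 and -2.65 in Control lines 1 and 2, so that Low line 1 was level with High line 2. For cell cycle and meiosis the median difference between groups was -0.43, with 21 of 23 negative, and the median sex difference was -2.85 in Low line 1 and -3.26 in Low line 2, against -3.17 in High line 2, beyond Low line 1. Muscle contraction had a median of 0.37, with all 22 values positive and none passing, and its median sex difference was 0.10 in Low line 1 and 0.60 in Low line 2, against 0.33 in High line 2, which lay above Low line 1. The egg shell list gave -0.28, with 1 call, Cp15. Testis and sperm (0.20) and seminal fluid (0.20) held no call and 1 call, Gld, and for seminal fluid the median was -0.02 under quantile normalization.

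The remaining called genes of the lists were few. GstD9, a glutathione S transferase, was lower in Low flies of both sexes, with 713.4, 913.6, 369.2 and 387.7 in Low males, against 806.4, 948.6, 514.8 and 366.9 in Low females, while other males had 1037 to 3244 and other females 682.6 to 1384. Its sex difference was -0.16 in Low lines, against 0.90 in High and 0.62 in Control lines (adjusted p = 0.0166). Rpt3R, a testis proteasome subunit, had a smaller male excess (3.54 and 2.91 in the Low lines, against 3.48 to 6.52 in the 4 others). ND-20L, a respiratory chain paralog, had a greater one (4.51 and 5.02, against 2.21 to 4.90), and in both genes Low line 1 lay within the range of the others. All female arrays of Rpt3R and all Low female arrays of ND-20L were under 75, so these sizes are imprecise. Cyp6a20, a P450 known to affect aggression, had 1564, 1718, 2403 and 2474 in Low males, against 1114, 1184, 1793 and 1714 in Low females, a sex difference of 0.49, against 0.06 in High and -0.01 in Control lines. tra2 differed by -0.49 ± 0.10 (adjusted p = 0.0257), with a sex difference of -0.77 and -1.01 in the Low lines, against -0.99 to -0.02 in the 4 other lines, which overlapped. The germ line genes spn-E and gcl gave -0.59 and -0.61, and for gcl Low line 1 (-2.71) lay within the range of the others (-2.86 to -2.01).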

How the data were processed

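Whole flies of 24 samples were measured on Affymetrix Drosophila GeneChip 2.0 arrays. The values are Signal, a linear intensity that the authors computed with MAS5 and scaled on each array before it was deposited; the trimmed mean (2% cut at each end) was 495.3 to 497.9 on every array. No further scaling was applied, the number of arrays limits the precision, and 0 columns of the value table were left unused. Of 18769 probe sets, 11439 had a median Signal of at least 75 and were tested on log2(Signal) with limma 3.58.1 in R 4.3.3 and Benjamini-Hochberg adjustment. The sex difference was fitted on the 8 Low arrays with line as a covariate (5 residual degrees of freedom). The comparison with the other groups was fitted on all 24 arrays as 12 means of line and sex (12 residual degrees of freedom) and set Low lines against the mean of High and Control lines. The 2 Low lines were compared within the 8 arrays.

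Genes took the symbols of the platform annotation, updated through RefSeq (Release 6 plus ISO1 MT; 9443 of 9470 matched), which also gave the chromosome. Where a gene had several probe sets, the one with the highest mean Signal stood for it. The genes named are the 8 of smallest p limited to each sex. Also named are the 8 of largest difference in each direction, measured on all 8 arrays without overlap of the sexes. All tested members of the sex determination, dosage compensation, fat body and pheromone lists are named. Of each other list, up to 4 of smallest p are named. Against the other groups, they are the 10 called probe sets of largest difference in each direction. For these, the sex differences of both Low lines also had to lie on the same side of those of all 4 other lines. Genes that differed between the Low lines are named too, and others for a count they complete. The members and the 26 lists were chosen with earlier results of these data known, and the pattern for P450 genes was corrected after values were seen to leave out cyclophilins.

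In simulated data for the sex difference in Low lines, 31 of 100 probe sets changed 1.5-fold and 72 of 100 changed 2-fold were recovered, with 4 false calls. For Low lines against the others these were 33, 80 and 3, and between the Low lines 0, 0 and 0. Alternatives were other scales, scalings, filters, models and thresholds, and leaving out each array and line. Python 3.11.15, pandas 2.3.3, NumPy 2.4.6 and matplotlib 3.10.9 were used for summaries and plots.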

Additional observations from a re-analysis of the deposited data

Results flagged for a closer look

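In 9 of 328 groups of 4 arrays, 1 array lay far from the other 3, and chance gives about 1 in 20. Among males these were CG5568 at 6.7 (line 2 replicate 1), eloF at 150.9 and bond at 2324 (both line 1 replicate 1). Among females they were CG43106 at 2.2, clos at 1310 and Drsl5 at 2958 (all line 2 replicate 2), Cyp18a1 at 1101 (line 2 replicate 1), and lok at 3444 and an unnamed probe set at 114.6 (both line 1 replicate 2).

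The sex difference of Low lines differed from the mean of High and Control lines in the named genes. The male minus female difference was greater in Low lines for CG32313 (2.74), CG43063 (2.57), Rsph4a (2.38), CG4962 (2.37), nis (2.03), CG31128 (1.95), dpr17 (1.80), MFS3 (1.73), an unnamed probe set (1.52) and Gld (1.24). It was smaller for Cp15 (-3.56), Obp99a (-2.89), tej (-2.42), Rab23 (-2.32), Hsc70-2 (-2.21), a further unnamed probe set (-2.10), CG6927 (-2.05), CG11362 (-2.03), CG14013 (-1.85) and CG11227 (-1.84). Between Low line 1 and Low line 2 the sex difference differed for CG12470 (-6.90), CG7295 (-2.70) and CG15580 (2.31).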

How the results depend on the processing

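For the sex difference in Low lines (2071 probe sets higher in males and 3316 in females), leaving out 1 array gave 1653 to 1918 higher in males and 2572 to 2901 in females, and 3999 were called without each array and line in turn. An adjusted p under 0.05 gave 3381 and 5022, the factorial analysis of the study's methods, on linear Signal, 1584 and 2011, line 1 alone 891 and 413, line 2 alone 917 and 584, and the means of line and sex as samples 697 and 111. No named gene reversed. Without a filter, 1 synapse gene was higher in males and 1 in females, and 8 P450 genes in males and 5 in females.

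For Low lines against the others (63 greater and 197 smaller), the counts were 125 and 405 with log2(Signal + 50), 79 and 105 with quantile normalization, 173 and 90 with median centring, over all arrays or, an alternative chosen after seeing the data, within each sex, 52 and 157 with a median Signal of at least 50, 84 and 257 with at least 150, 5 and 15 without a filter, 209 and 1109 on the linear Signal, 2 and 8 at an adjusted p under 0.01, and 2 and 2 under 0.001. With the 6 line differences as samples they were 0 and 0 in limma, with 1387 at an unadjusted p under 0.05. They were 17 and 37 without Low line 1, 8 and 12 without Low line 2, 24 and 32 without High line 1, 148 and 462 without High line 2, 14 and 28 without Control line 1, and 36 and 141 without Control line 2. Without 1 array, 19 to 123 were greater and 39 to 401 smaller, and 3 probe sets were called without each array and line in turn. On the linear Signal 4 genes changed sign, none passing: CG32313 (-46.66), nis (-94.04), dpr17 (-13.14) and CG11362 (23.1 Signal units). The cause was not tested.

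Between the Low lines (4 probe sets), 1 passed with log2(Signal + 50), 2 with quantile normalization, 1 at an adjusted p under 0.01, 1 under 0.001, and 1 to 76 without 1 array. Samples with the same replicate number did not deviate together (correlations -0.026 to 0.059 within lines). With a replicate block the counts were 1636 and 2324 for sex, 7 and 15 against the others, and 1 between the Low lines. Values under a Signal of 75 limit the size of log2 differences.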

Other observations

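In the circadian clock list, 1 of 14 genes (7.14%, against 19.6% of all genes) was higher in Low males. Higher in Low females were 4 (28.6%, near the 30.2% of all genes), and the median was 0.00. Clock (Clk), a transcription factor of the clock, had a Signal of 509.6, 451.0, 596.9 and 656.5 in Low males, against 269.2, 266.0, 309.4 and 287.0 in Low females. Its partner cycle (cyc) had 247.3, 245.3, 259.7 and 218.9 in Low males, against 667.9, 639.8, 767.0 and 880.0 in Low females. The partners thus differed in opposite directions, without overlap of the sexes in either. The kinase doubletime (dco) had a log2 difference of -1.28, and tws, a phosphatase subunit, -0.55.

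Among 31 tested glutathione S transferases, males exceeded females in 2 (6.45%, against 19.6% of all genes). Females exceeded males in 5 of the 31 (16.1%, against 30.2% of all genes). The median was 0.15, with GstE3 at 0.92 and GstZ1 at -1.21. Among 24 tested UDP-glycosyltransferases, males exceeded females in 4 (16.7%, near the 19.6% of all genes). Females exceeded males in 1 of the 24 (4.17%, against 30.2% of all genes). Ugt305A1 stood at 2.63 and Ugt316A1 at -1.72. Of 41 digestive enzymes 2, Ser7 (0.60) and Ser8 (1.32), and of 31 tested cuticle proteins (100 on the array) 2, Cpr67Fb (2.76) and Cpr51A (1.36), were higher in males and none in females. The male shares were 4.88% of the digestive enzymes and 6.45% of the cuticle proteins, against 19.6% of all genes. The calls of Ser7 and Ser8 were each lost without any 1 of 7 arrays, and under quantile normalization 4 cuticle proteins were higher in females.

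Several tested probe sets represented 532 genes, and in 360 of these all had the same call. In 7 genes (MICU3, TrpRS, dlg1, dsx, l(1)G0196, mud and pyd) probe sets passed in opposite directions. One probe set of mud, a spindle protein, had 379.0, 287.8, 366.8 and 392.4 in Low males, against 12.7, 2.3, 33.1 and 36.9 in Low females, while a further one had 56.2, 84.5, 44.8 and 39.1 in Low males, against 301.8, 367.6, 254.9 and 310.3 in Low females.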
